A study of Mus musculus with 6 samples.

Results

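Prostaglandins and leukotrienes are signalling lipids made from arachidonic acid, and 10 genes of their synthesis and sensing were followed in tumour-associated macrophages (macrophages taken out of a tumour). They are the cyclooxygenase genes Ptgs1 and Ptgs2, the prostaglandin E synthase gene Ptges, the prostaglandin receptor genes Ptgir and Ptger4, the lipoxygenase genes Alox5 and Alox15, and the leukotriene genes Alox5ap, Ltc4s and Lta4h. Each was chosen by its symbol and represented by its brightest probe set among those that the array annotation ties to exactly 1 gene. By that rule 9 of the 10 were measured, out of 19938 genes in all, and each of the 9 had 1 probe set. Ptgs1, the constitutive cyclooxygenase, had no probe set tied to it alone and was not analysed here.

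The macrophages came from C57BL/6 mice carrying tumours of hepa1-6, a mouse hepatoma cell line, implanted orthotopically in the liver, and were sorted by flow cytometry. The 6 arrays (Affymetrix Mouse Gene 1.0 ST) were 3 of mice given PLX3397, a small molecule that blocks the receptor tyrosine kinases CSF1R, KIT and FLT3, and 3 of mice given vehicle. The sources used here do not give dose, duration, age or the markers of the sort. The labels call the arrays biological replicates but do not say whether each came from its own animal or from pooled animals, so p-values reflect the spread among these arrays alone, which may be technical. The description field also carries a second name for each sample, of macrophages given IL4 for the PLX3397 arrays and of macrophages given LPS and interferon-gamma for the vehicle arrays. Those names go against the titles, sources and treatment labels, which set the groups used here.

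Values are log2 per probe set as deposited. Each gene is set against its own level in the other group, since levels of different probe sets are not comparable. A gene was called where its adjusted p (limma, Benjamini-Hochberg over all 19938 genes) was under 0.05, and it was above background where its value exceeded the 95th percentile, on that array, of 1190 genes for olfactory or vomeronasal receptors, a level of 3.52 to 3.58. All 8 macrophage markers were above background on every array, among them Adgre1, Csf1r, Cd68 and Itgam. PLX3397 replicate 3 stood apart from the others of its group, where 37 genes exceeded their average on its group mates by over 2 log2, against 0 on each other array.

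In the cyclooxygenase branch, a phospholipase frees arachidonic acid from membranes, PTGS1 or PTGS2 turns it into prostaglandin H2, and terminal synthases turn that into prostaglandin E2, D2, prostacyclin or thromboxane, which act on G protein-coupled receptors. In the leukotriene branch, 5-lipoxygenase (ALOX5), helped by its activating protein (ALOX5AP), makes leukotriene A4, from which LTA4H makes leukotriene B4, a neutrophil attractant, and LTC4S makes leukotriene C4, the parent of the cysteinyl leukotrienes. Macrophages are known to make both kinds of lipid, and prostaglandin E2 is known in tumours for damping T cell and macrophage responses through receptors such as EP4, the product of Ptger4.

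The start regions of 4 of these genes are shown because their transcripts are those that differed most in each direction among the members with a RefSeq window: Alox5 and Ptgir were higher, and Ptges and Ptger4 lower, with PLX3397. Each line holds the 250 bases before the RefSeq start on the mouse build GRCm38.p6, written 5′ to 3′ on the strand of the gene, with letters that match a searched motif in capitals. The windows lie at chr6:116461179-116461428 (minus strand) for Alox5, chr7:16906240-16906489 (plus strand) for Ptgir, chr2:30903298-30903547 (minus strand) for Ptges and chr15:5244188-5244437 (minus strand) for Ptger4.
Alox5: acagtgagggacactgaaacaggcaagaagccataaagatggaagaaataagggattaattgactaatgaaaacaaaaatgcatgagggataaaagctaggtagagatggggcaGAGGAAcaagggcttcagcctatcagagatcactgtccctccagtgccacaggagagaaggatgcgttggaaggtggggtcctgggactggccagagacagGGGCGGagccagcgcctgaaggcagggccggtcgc
Ptgir: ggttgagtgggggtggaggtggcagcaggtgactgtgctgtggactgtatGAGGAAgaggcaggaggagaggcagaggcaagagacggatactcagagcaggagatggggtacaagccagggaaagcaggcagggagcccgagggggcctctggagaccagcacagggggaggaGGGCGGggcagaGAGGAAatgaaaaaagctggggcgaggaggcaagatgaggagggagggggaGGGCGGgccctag
Ptges: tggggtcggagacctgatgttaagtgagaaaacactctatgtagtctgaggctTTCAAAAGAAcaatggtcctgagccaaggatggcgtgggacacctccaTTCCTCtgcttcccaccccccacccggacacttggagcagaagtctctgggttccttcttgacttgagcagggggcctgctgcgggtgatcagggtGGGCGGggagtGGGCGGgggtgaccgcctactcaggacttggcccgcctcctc
Ptger4: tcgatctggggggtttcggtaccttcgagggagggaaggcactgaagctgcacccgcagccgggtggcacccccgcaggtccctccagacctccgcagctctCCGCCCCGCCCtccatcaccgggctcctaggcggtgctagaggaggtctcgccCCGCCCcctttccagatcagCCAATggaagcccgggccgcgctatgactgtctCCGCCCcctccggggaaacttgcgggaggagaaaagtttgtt

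The motifs were searched on both strands. GAGGAA, the core of many PU.1 sites (PU.1 is the transcription factor that directs the macrophage lineage), is in the windows of Alox5, Ptgir and Ptges and of 6 of the 8 members with a window, against 23.3% of all 32851 RefSeq windows. Both the 8 and the 6 include Ptgs1, which was not measured. GGGCGG, the GC box, is in all 4 printed windows, in 5 of 8 members and in 32.7% of all windows, and in Ptger4 a pair of its matches shares a base. CCAAT is in 2 of 8, Ptger4 and Lta4h, against 33.8% of all windows. A palindrome of the STAT6 type (TTC, any 4 bases, GAA) is in 1 of 8, Ptges, against 5.85% of all windows. TATAAA (12.4% of all windows), TGACGT (6.47%) and TGANTCA (6.75%) match no member window. These are matches of letters in a short window, and the arrays hold no measure of binding. Alox5ap and Alox15 are named only.

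With PLX3397, 7 of the 9 measured genes were higher and 2 were lower, and all 9 were called. Over all genes 37.8% were called, 19.6% as higher and 18.3% as lower. The rises were those of the leukotriene enzyme genes Alox5, Alox5ap, Ltc4s and Lta4h, and of Alox15, Ptgs2 and the prostacyclin receptor gene Ptgir, and the falls were those of Ptges and Ptger4. The median change of the 9 was 0.46 and their median absolute change 0.69, beside 0.04 and 0.19 over all genes. In 9 of 9 the groups did not overlap, as in 49.3% of all genes, and 3 of the 9 (Alox5, Alox5ap and Ptgir) were called with a change of at least 1 log2, as were 7.25% of all genes. Without PLX3397 replicate 3 the counts were again 7 and 2, with 35.6% of all genes called. Centring each array on its median lowers every change by 0.13 and leaves 5 higher and 2 lower, since Ptgs2 and Alox15 then lose their calls.

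**Figure D1:**
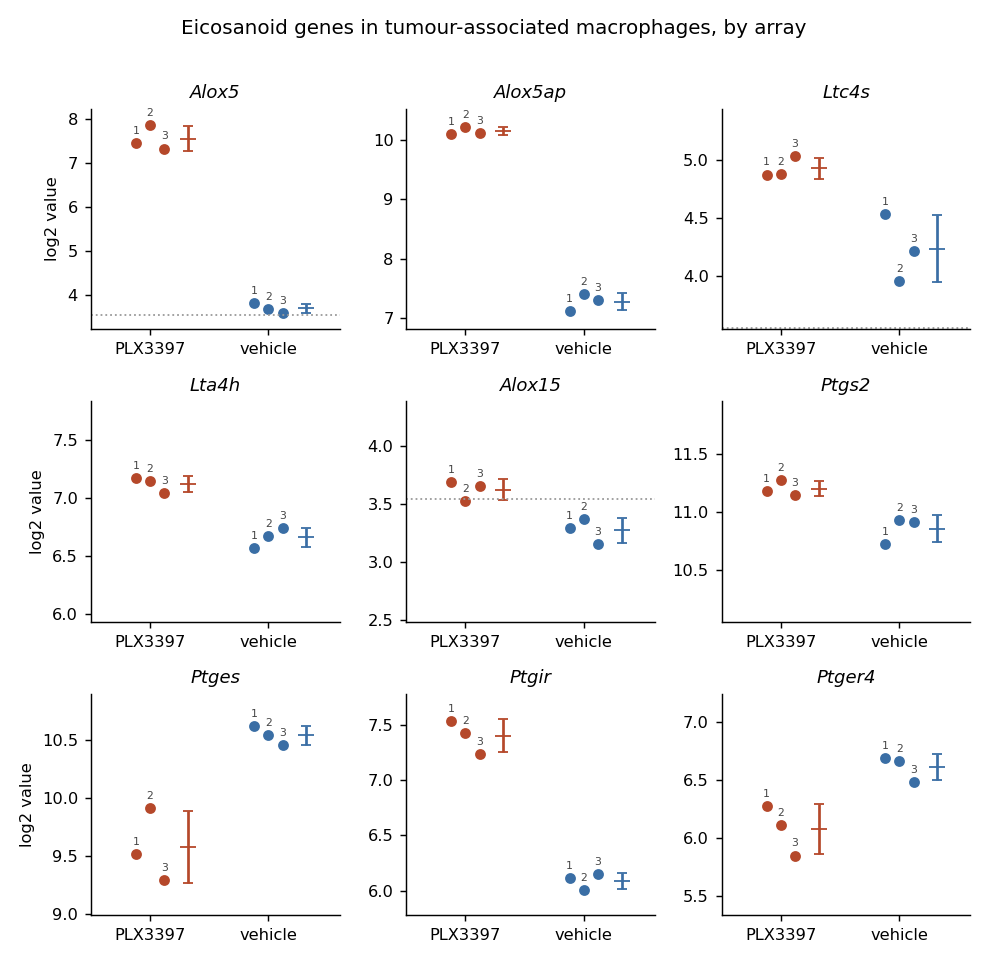
Deposited log2 value (vertical axis, own scale in each panel) of the 9 measured genes on the 3 PLX3397 arrays and the 3 vehicle arrays. Points are arrays labelled by replicate number, the bars beside them are mean ± SD, and the dotted line is the mean background level. The groups do not overlap in any panel, with the widest gap in Alox5 and the narrowest in Alox15.

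Alox5 (probe set 10547153), the gene of 5-lipoxygenase, had the largest change of the 9. Its values were 7.46, 7.87 and 7.33 on the PLX3397 arrays, against 3.80, 3.68 and 3.59 on the vehicle arrays. All vehicle arrays lay just above background, and the lowest PLX3397 array lay 3.52 above the highest vehicle array. The means were 7.55 ± 0.28 with PLX3397 and 3.69 ± 0.11 with vehicle (SD, n = 3 each), a change of 3.86 (SE 0.13, 95% interval 3.56 to 4.16, limma adjusted p = 2.09e-08) or 14.5-fold. By absolute change this was rank 39 of 19938 genes, and without PLX3397 replicate 3, its lowest PLX3397 array, the change was 3.97. A higher share of cells that carry a transcript and more transcript per cell cannot be told apart in such sorted bulk samples.

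Alox5ap (probe set 10527638) encodes the membrane protein that presents arachidonic acid to 5-lipoxygenase, and it rose as well. PLX3397 arrays read 10.11, 10.23 and 10.12, against 7.12, 7.41 and 7.31 on vehicle arrays. The groups were far apart and the PLX3397 arrays lay within 0.12 of each other. Its mean was 10.15 ± 0.07 with PLX3397 and 7.28 ± 0.15 with vehicle (SD, n = 3 each), a change of 2.87 (SE 0.09, 95% interval 2.66 to 3.08, limma adjusted p = 1.41e-08) or 7.31-fold, at rank 120 by absolute change. Unlike Alox5, whose vehicle values were next to background, Alox5ap was well above background in both groups.

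Both enzymes that take leukotriene A4 onward were higher too, by smaller amounts. Ltc4s (probe set 10385583), the leukotriene C4 synthase, had values of 4.87, 4.88 and 5.03 with PLX3397, against 4.53, 3.96 and 4.22 with vehicle. The vehicle arrays were spread over 0.57 and the PLX3397 arrays over 0.16, with no overlap. The change was 0.69 (SE 0.13, 95% interval 0.40 to 0.99, limma adjusted p = 0.00198), a 1.62-fold difference, and 0.64 without PLX3397 replicate 3.

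Lta4h (probe set 10365749), the leukotriene A4 hydrolase, is also an aminopeptidase that trims peptides. On PLX3397 arrays it read 7.17, 7.15 and 7.04, against 6.57, 6.67 and 6.74 on vehicle arrays. Every PLX3397 array was above every vehicle array, by 0.31 or more. The change was 0.46 (SE 0.08, 95% interval 0.28 to 0.65, limma adjusted p = 0.0014), a 1.38-fold difference. The change of Ltc4s exceeded that of Lta4h by 0.23 (exact permutation test of the within-array difference over 20 assignments, two-sided p = 0.4), by 0.02 with quantile normalisation and by 0.43 without vehicle replicate 1. With 3 arrays per group the smallest p this test can give is 0.1, so it could not pass 0.05 and does not show whether the changes differ.

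Alox15 (probe set 10387855), which in mice encodes the 12/15-lipoxygenase known from eosinophils and resident peritoneal macrophages, stayed close to background. Its values were 3.69, 3.53 and 3.66 with PLX3397, against 3.30, 3.37 and 3.16 with vehicle. It was above background on 2 of the 3 PLX3397 arrays and on 0 of the 3 vehicle arrays, so only a bound can be given for its fold, at least 1.07. The fitted change was 0.35 (SE 0.09, 95% interval 0.15 to 0.55, limma adjusted p = 0.0104), and it lost the call when arrays were centred (adjusted p = 0.084). The genomic neighbours Alox12 and Alox12e encode related lipoxygenases on chromosome 11.

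**Figure D2:**
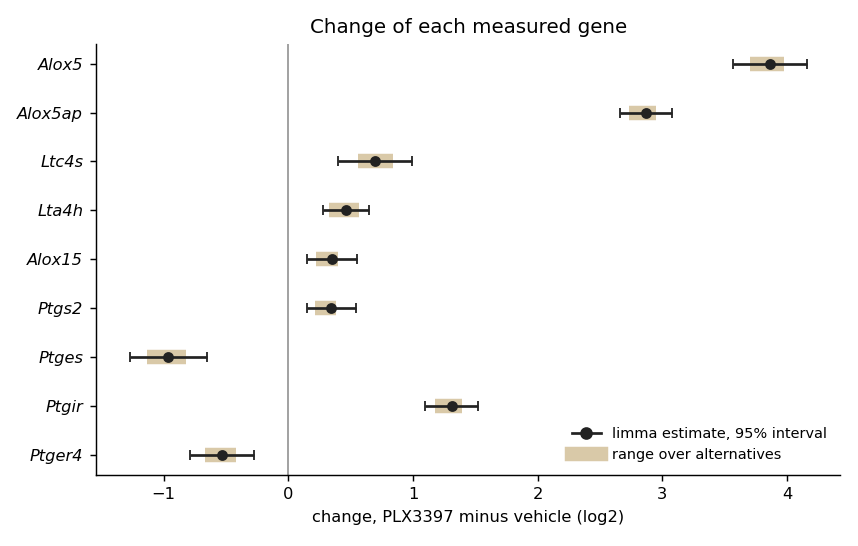
Change of each measured gene, PLX3397 minus vehicle on the log2 scale (horizontal axis), as the limma estimate with its 95% interval (black, n = 3 arrays per group). The pale bars give the range over the alternative analyses. Ptges and Ptger4 lie left of 0 and the other 7 genes right of it.

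Of the enzyme genes on the prostaglandin E2 route, Ptgs2 was slightly higher and Ptges lower, while Ptgs1 was not measured. Of the other prostaglandin E synthase genes, Ptges3 fell by 0.88 and Ptges2 did not pass (change 0.11, limma adjusted p = 0.439). Ptgs2 (probe set 10350516), the inducible cyclooxygenase, had values of 11.18, 11.27 and 11.14 on PLX3397 arrays, against 10.72, 10.93 and 10.91 on vehicle arrays. It was far above background on all arrays, and the groups were apart by 0.21. The change was 0.34 (SE 0.09, 95% interval 0.15 to 0.54, limma adjusted p = 0.0106), a 1.27-fold difference. Many genes moved this far, since its absolute change was rank 6119 of 19938, and the call was lost when arrays were centred (change 0.21, adjusted p = 0.098).

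Ptges (probe set 10481518) encodes the microsomal prostaglandin E synthase that acts after PTGS2, and it had the largest fall of the 9. Its values were 9.51, 9.91 and 9.29 with PLX3397, against 10.62, 10.54 and 10.45 with vehicle. The PLX3397 arrays were spread over 0.61, with replicate 3 lowest, and the vehicle arrays over 0.17. Means were 9.57 ± 0.31 with PLX3397 and 10.54 ± 0.08 with vehicle (SD, n = 3 each), a change of -0.96 (SE 0.14, 95% interval -1.27 to -0.65, limma adjusted p = 3.05e-04), which leaves 51.3% of the vehicle level. Without PLX3397 replicate 3 the change was -0.83 (limma adjusted p = 3.87e-04).

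Of the 2 receptor genes, the one for prostacyclin rose and the one for prostaglandin E2 fell. Ptgir (probe set 10550394), whose product IP raises cyclic AMP, had values of 7.54, 7.42 and 7.24 with PLX3397, against 6.11, 6.01 and 6.15 with vehicle. The groups were 1.09 apart. The change was 1.31 (SE 0.10, 95% interval 1.10 to 1.52, limma adjusted p = 2.83e-06), a 2.48-fold difference at rank 811 by absolute change.

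Ptger4 (probe set 10427461), whose product EP4 also raises cyclic AMP, read 6.28, 6.11 and 5.85 on PLX3397 arrays, against 6.69, 6.67 and 6.48 on vehicle arrays. The groups were 0.21 apart and PLX3397 replicate 3 was the lowest of the 6 arrays. The change was -0.53 (SE 0.12, 95% interval -0.79 to -0.28, limma adjusted p = 0.00423), which leaves 69.1% of the vehicle level. Without PLX3397 replicate 3 it was -0.42 (limma adjusted p = 0.00893).

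Among the PLX3397 arrays, replicate 3 was the lowest for 6 of the 9 genes (Alox5, Lta4h, Ptgs2, Ptges, Ptgir and Ptger4) and the highest for 1, Ltc4s. Replicates 1 and 2 were the highest for 4 genes each. Among vehicle arrays no replicate was lowest for more than 4. All 9 calls remained without PLX3397 replicate 3, and they also remained without any other single array. Set among all genes, Alox5 and Alox5ap had larger absolute changes than 99.8% and 99.4% of genes, Ptgir than 95.9% and Ptges than 92.1%. The remaining 5 ranged from 69.3% (Ptgs2) to 86.4% (Ltc4s).

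**Figure D3:**
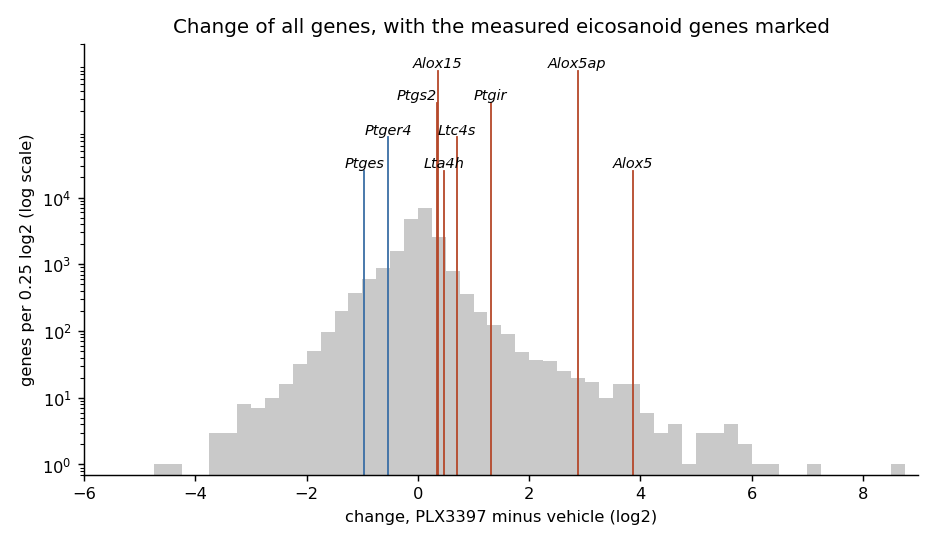
Number of genes (vertical axis, log scale) per 0.25 log2 of change, PLX3397 minus vehicle (horizontal axis), for all 19938 genes in grey. Vertical lines mark the 9 measured genes, red where higher with PLX3397 and blue where lower, and their heights only separate the labels. Alox5 and Alox5ap stand in the right tail, at 3.86 and 2.87, and Ptgs2, Alox15 and Lta4h stand in the body of the distribution.

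The genes whose values over the 6 arrays were most like those of Alox5 were Ifitm1, Olfm1 and A530064D06Rik. After each gene was centred on its own mean, they differed from Alox5 by 0.09, 0.11 and 0.13 log2 per array on average, among 13766 genes above background on at least 3 arrays. For Ptges the nearest were Stxbp3 (0.04), Dtx2 (0.05) and Casd1 (0.06). Their own changes were 3.74, 3.81 and 3.93 for the first trio, beside 3.86 for Alox5, and -1.02, -0.95 and -0.85 for the second, beside -0.96 for Ptges. Such near-equal changes follow from the choice, since likeness was measured on the same 6 arrays.

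A wider set of 67 genes of eicosanoid synthesis, transport, breakdown and sensing, listed by role, had 62 measured. With PLX3397 19 of them were higher and 11 lower, together 48.4%, beside 37.8% of all genes. Without PLX3397 replicate 3 the counts were 20 and 9, and with centred arrays 12 were higher and 12 lower. Of the 62, 13 were called with a change of at least 1 log2, 8 higher and 5 lower, beside 7.25% of all genes, and 1 of the 13, Ephx2, was at 0.78 without PLX3397 replicate 3. Their median change was 0.12, beside 0.04 over all genes, and 13 of the 62 were above background on no array.

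**Figure D4:**
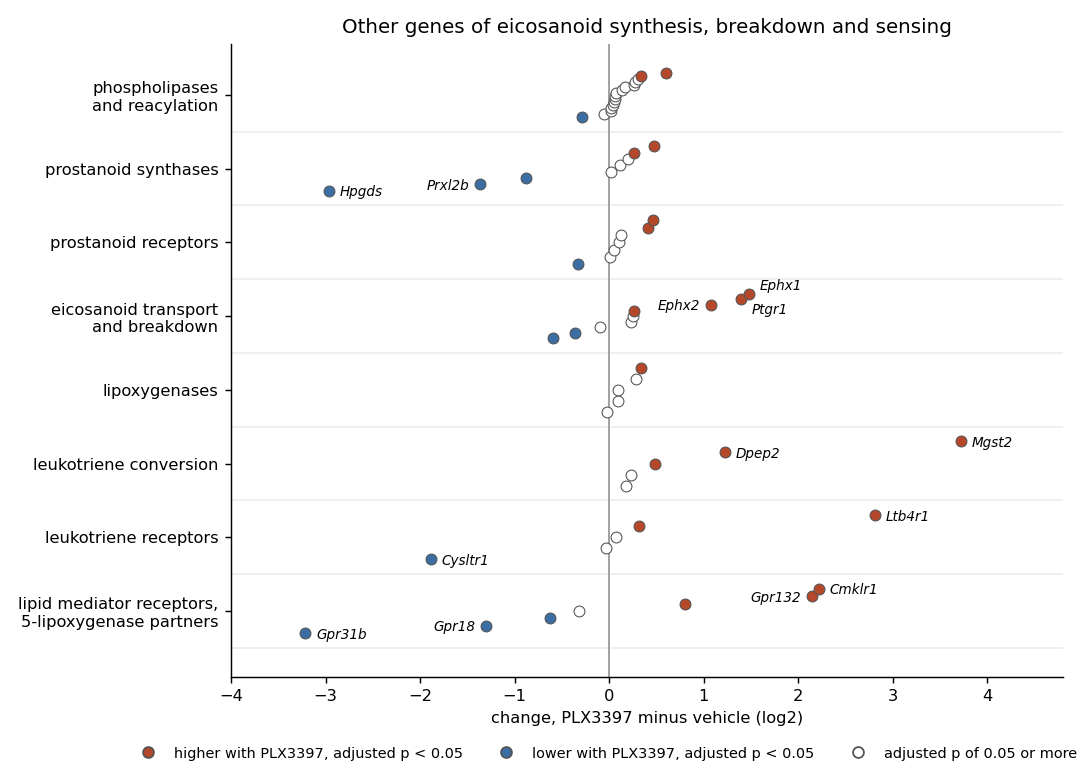
Change of the 62 measured genes of the wider pathway, PLX3397 minus vehicle on the log2 scale (horizontal axis), by role (rows, with genes of a role offset vertically by order of change). Red points are higher and blue points lower with PLX3397 at a limma adjusted p under 0.05, open points did not pass, and names are given for called changes of at least 1 log2. Mgst2 and Ltb4r1 lie farthest right and Gpr31b and Hpgds farthest left.

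Upstream of both branches, the phospholipases and reacylating enzymes that set free arachidonic acid or put it back had 2 higher and 1 lower of 16, or 18.8% called, beside 37.8% of all genes. Pla2g4a, the cytosolic phospholipase A2 that supplies most arachidonic acid for eicosanoids, averaged 8.22 with PLX3397 and 8.17 with vehicle, a difference of 0.06 whose 95% interval ran from -0.24 to 0.36 (limma adjusted p = 0.777). Mboat7, which returns arachidonic acid to phosphatidylinositol, rose by 0.60 (SE 0.08, adjusted p = 2.61e-04). The secreted phospholipase gene Pla2g10 rose by 0.34 and Lpcat2, which makes platelet-activating factor and phosphatidylcholine, fell by 0.29. The call of Pla2g10 was lost without PLX3397 replicate 1 (adjusted p = 0.068) or 2 (0.070), without vehicle replicate 2 (0.064) or 3 (0.074), and with both scalings (adjusted p = 0.077 with quantile normalisation and 0.13 with centring). When single arrays were left out, that of Lpcat2 was lost without PLX3397 replicate 3 (adjusted p = 0.094) or replicate 1 (0.073) and without vehicle replicate 1 (0.092) or 3 (0.087).

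Among the terminal prostanoid synthases 2 of 8 rose and 3 fell, or 62.5% called, beside 37.8% of all genes. Hpgds, the haematopoietic prostaglandin D synthase, read 4.94, 5.49 and 5.56 on PLX3397 arrays, against 8.31, 8.33 and 8.26 on vehicle arrays. The vehicle arrays were nearly level and all PLX3397 arrays lay at least 2.70 below them. The change was -2.97 (SE 0.15, limma adjusted p = 1.97e-07), leaving 12.8% of the vehicle level, at rank 110 by absolute change.

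Prxl2b, a prostaglandin F synthase, fell by 1.37 and Ptges3, the cytosolic prostaglandin E synthase also known as the HSP90 co-chaperone p23, fell by 0.88. Cbr1, a carbonyl reductase that turns prostaglandin E2 into F2α, rose by 0.47. The thromboxane synthase gene Tbxas1 averaged 8.11 with PLX3397 and 7.91 with vehicle and did not pass (adjusted p = 0.105), but it passed as higher with quantile normalisation (0.25, adjusted p = 0.021) and without PLX3397 replicate 3 (0.27, adjusted p = 0.042). Of the 7 other prostanoid receptor genes 2 rose and 1 fell, or 42.9% called, near the 37.8% of all genes. The called genes changed by under 0.5: the thromboxane receptor gene Tbxa2r by 0.46 and the EP2 gene Ptger2 by 0.41 upward, and the EP1 gene Ptger1 by 0.33 downward. Ptger2 lost its call with centred arrays (adjusted p = 0.063), and Ptger1 without PLX3397 replicate 3 (0.052), vehicle replicate 2 (0.059) or vehicle replicate 3 (0.068).

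In the transport and breakdown list 4 of 9 rose and 2 fell, or 66.7% called, beside 37.8% of all genes. Ptgr1, which inactivates leukotriene B4 and 15-keto prostaglandins, had values of 9.40, 9.84 and 9.66 with PLX3397, against 8.08, 8.31 and 8.33 with vehicle, a rise of 1.40 (SE 0.12, limma adjusted p = 9.51e-06). The microsomal epoxide hydrolase gene Ephx1 rose by 1.48 (SE 0.13, adjusted p = 9.28e-06). The soluble epoxide hydrolase gene Ephx2, which hydrolyses epoxides of arachidonic acid, read 3.49, 3.20 and 4.24 with PLX3397, against 2.50, 2.57 and 2.64 with vehicle. Its fitted change was 1.08 (SE 0.21, adjusted p = 0.00245), and 0.78 without PLX3397 replicate 3. That replicate alone was above background, so the fold is bounded at 1.08 or more, and without it no fold can be given. The prostaglandin transporter gene Slco2a1 fell by 0.59 (SE 0.12, adjusted p = 0.00364).

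Of 5 other lipoxygenase genes 1 was called, or 20%, beside 37.8% of all genes. It was the platelet-type Alox12, which was above background on 2 PLX3397 arrays and 0 vehicle arrays and was at least 1.10-fold higher. That call was lost with both scalings (adjusted p = 0.081 with quantile normalisation and 0.163 with centring) and without PLX3397 replicates 1 (0.101) or 2 (0.077) or vehicle replicates 1 (0.065) or 3 (0.090). Among 5 genes that convert leukotrienes 3 rose and 0 fell, or 60% called, beside 37.8% of all genes. Mgst2, a microsomal glutathione S-transferase that can also make leukotriene C4, read 8.12, 8.10 and 7.69 on PLX3397 arrays, against 4.16, 4.56 and 4.03 on vehicle arrays. The groups were 3.13 apart, and the change of 3.72 (SE 0.15, limma adjusted p = 6.48e-08) or 13.2-fold was at rank 54 by absolute change. Its relative Mgst3 rose by 0.48, a call lost with centred arrays (adjusted p = 0.067) and without PLX3397 replicate 2 (0.066).

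Dpep2, a membrane dipeptidase that turns leukotriene D4 into E4, rose by 1.22 (SE 0.08, limma adjusted p = 9.79e-07) on its bright probe set. A second, dim probe set of Dpep2 went the other way, with means of 3.53 for PLX3397 and 4.03 for vehicle (change -0.49, adjusted p = 0.0235 among all probe sets), so the direction of Dpep2 depends on the probe set.

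The receptors of the leukotrienes split, with 2 of 5 higher and 1 lower, or 60% called, beside 37.8% of all genes. Ltb4r1, the receptor BLT1 of leukotriene B4, had values of 6.88, 7.26 and 6.90 with PLX3397, against 3.98, 4.00 and 4.63 with vehicle. Every PLX3397 array was at least 2.25 above the vehicle arrays, and the change was 2.81 (SE 0.17, limma adjusted p = 9.29e-07), a 7.01-fold difference. Cysltr1, the main receptor of leukotriene D4, read 6.03, 6.46 and 5.44 with PLX3397, against 7.83, 7.89 and 7.87 with vehicle. The vehicle arrays were nearly level and the PLX3397 arrays were spread more widely below them. Its change was -1.89 (SE 0.20, limma adjusted p = 3.81e-05), and -1.62 without PLX3397 replicate 3. The third call of the 5, Cysltr2 (0.32), was below background on all 6 arrays, and it was lost with centred arrays (adjusted p = 0.11) and without vehicle replicate 3 (0.054).

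Of 7 further lipid mediator receptors and 5-lipoxygenase partners 3 rose and 3 fell, or 85.7% called, beside 37.8% of all genes. Cmklr1, a receptor of chemerin and of resolvin E1, had means of 9.17 ± 0.15 with PLX3397 and 6.96 ± 0.07 with vehicle (SD, n = 3 each) and rose by 2.22 (SE 0.09, limma adjusted p = 8.17e-08). Gpr132, the lysolipid and oxidised fatty acid receptor, had means of 7.57 ± 0.19 with PLX3397 and 5.42 ± 0.17 with vehicle and rose by 2.14 (SE 0.12, adjusted p = 4.99e-07). Gpr31b, whose human counterpart is a receptor of 12-HETE, fell to 7.28 ± 0.17 with PLX3397, against 10.50 ± 0.03 with vehicle, a change of -3.22 (SE 0.10, adjusted p = 8.78e-09). Gpr18, proposed as a receptor of N-arachidonyl glycine and resolvin D2, fell by 1.30 (SE 0.12, adjusted p = 1.38e-05).

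Several of these genes are also expressed by other blood cells, and markers of those cells were read on the same arrays. The counts of called markers stand beside 19.6% of all genes called higher and 18.3% called lower. Of 8 neutrophil markers Ly6g, Ngp, Ltf, Retnlg and Cxcr2 were below background on all 6 arrays. A summed level follows the brightest markers of its list and does not measure a share of cells. The log2 of the summed neutrophil marker level was 8.64 to 9.50 with PLX3397 and 7.83 to 7.89 with vehicle. Most of it was S100a8, at 8.62, 9.32 and 8.28 with PLX3397, against 7.24, 7.16 and 7.25 with vehicle. Called higher were 3 markers, S100a8 (1.52) and, below background, Ly6g and Ltf. S100a9 (limma adjusted p = 0.115) and Camp (0.201) were not called. Of 8 mast cell and basophil markers Cpa3, Mcpt8, Mcpt4, Cma1, Fcer1a and Ms4a2 were below background on all arrays, and the summed level was 6.20 to 6.32 with PLX3397 and 6.17 to 6.20 with vehicle. Of 5 eosinophil markers Prg2 and Il5ra were below background on all arrays, 1 (Siglecf) was higher and 1 (Ccr3) lower. The summed level was 6.00 to 6.11 with PLX3397 and 6.51 to 6.99 with vehicle, and its fall was that of Ccr3 (-2.25).

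Platelet and megakaryocyte markers had a summed level of 11.7 to 12.1 with PLX3397 and 11.1 to 11.2 with vehicle, most of it from Pf4 (change 0.54). Of the 6 markers 5 were called higher, led by Ppbp (2.52), beside 19.6% of all genes. Endothelial markers summed to 8.82 to 8.88 with PLX3397 and 7.52 to 7.61 with vehicle, with 5 of 8 higher and Tek below background on all arrays. Dendritic cell markers summed to 7.57 to 8.52 with PLX3397 and 6.24 to 6.37 with vehicle. Most of the PLX3397 sum was Ccr7, at 8.21, 6.91 and 7.43. Of the 6 markers 2 were higher, Ccr7 (3.35) and Zbtb46 (0.39), and Xcr1 and Clec9a were below background on all arrays. Large peritoneal macrophage markers summed to 6.21 to 6.27 with PLX3397 and 6.73 to 7.08 with vehicle, with 1 of 5 higher and 2 lower. The fall of that sum was mostly that of Timd4 (-1.90). Gata6, of the same list, was above background on 1 PLX3397 array and 0 vehicle arrays and was not called (limma adjusted p = 0.159). The macrophage markers themselves summed to 14.37 to 14.48 with PLX3397 and 14.33 to 14.35 with vehicle, with 2 of 8 higher (Itgam and Cd14) and 3 lower (Adgre1, Mertk and Fcgr1). Lymphocyte markers had 2 of 7 called higher, both below background on all arrays, and hepatocyte and hepatoma markers had 0 of 5 called. Of 6 fibroblast markers 2 were called lower, Col1a1 (-0.60) and Col1a2 (-0.43). Dcn (0.95), Lum (0.40), Pdgfrb (0.29) and Col3a1 (0.13) had higher means with PLX3397 but were not called. The fibroblast sums overlapped, at 8.61 to 9.63 with PLX3397 and 8.45 to 9.14 with vehicle. The part of other cell types in the changes of the eicosanoid genes was not tested.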

How the data were processed

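The deposited table holds 1 log2 value per probe set and array, for 6 arrays, with the base inferred from the range of 1.57 to 13.5. How they summarised and normalised them is not given in the sources used here beyond the name MAS5, per the submitters' processing notes. Array medians were 4.32 to 4.35 with PLX3397 and 4.21 to 4.25 with vehicle, so every PLX3397 median was above every vehicle median. The planned rule was to quantile normalise first only if medians differed by over 0.5. They did not, and the values were used as deposited. Of 28941 probe sets 21789 carry 1 gene symbol in the platform annotation, which gave 19938 genes by the brightest probe set. Prxl2b, like the other list genes, was matched by its symbol. No filter on dim genes was used.

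The groups were compared gene by gene with lmFit and eBayes of limma 3.58.1 (R 4.3.3), two-sided, with group alone in the model and Benjamini-Hochberg adjustment over all genes, and the fit was tested on simulated data. The members and the lists were chosen with earlier results of these data known, so counts over them are descriptions. The text names all members, up to 4 called genes with the largest change per wider list, the markers needed to describe each cell type, and the 3 genes most like the largest rise and the largest fall. A gene above background on no array of a group has a bound in place of a fold: the mean of the brighter group against, per array, the higher of background and the gene's own value. Ltc4s and Lta4h were compared by exact permutation of the arrays. The planned pair of Ptgs2 and Ptgs1 was not run, since Ptgs1 was not measured, and that of Alox5 and Alox15 is not reported, since Alox15 was below background on all vehicle arrays. Alternatives covered scaling, a dim-gene filter, the replicate block, variance settings, array weights, the mean of probe sets, the threshold, the background percentile and leaving out each array. Replicate numbers did not pair the arrays (correlation of deviations -0.010, 0.008 and -0.013). The arrays' number limits the precision. Batches were not tested, since scan dates were not used here. Promoter windows are RefSeq's, on GRCm38.p6. The tools for figures were matplotlib 3.10.9 and pandas 2.3.3.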

Additional observations from a re-analysis of the deposited data

How the results depend on the processing

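Of the 9 member changes, 7 kept their direction and call under all alternatives run, and no direction turned. Centring arrays on their medians, which moved the median change of all genes by -0.13 to -0.09, gave Ptgs2 a change of 0.21 (limma adjusted p = 0.098) and Alox15 one of 0.22 (0.084), both past the threshold no more. It left 12 wider pathway genes higher, against 19, and 12 lower, against 11. Over all genes it left 2282 higher and 5169 lower, so that 30.6% of calls were higher, against 51.7% as deposited. Quantile normalisation moved no member call. At a threshold of 0.01 Ptgs2 (change 0.34) and Alox15 (0.35) were not called, and 2475 of all genes were higher. A filter on mean level left Alox15 without a value. With background at the 99th percentile the fold of Alox5 became a bound of at least 9.34, and that of Alox15 could not be given; at the 90th percentile Alox15 had a measured fold of 1.28. Leaving out each array in turn gave changes of 3.70 to 3.97 for Alox5, 2.79 to 2.93 for Alox5ap, 0.56 to 0.84 for Ltc4s, 0.42 to 0.50 for Lta4h, 0.29 to 0.40 for Alox15, 0.28 to 0.38 for Ptgs2, -1.13 to -0.83 for Ptges, 1.24 to 1.39 for Ptgir and -0.63 to -0.42 for Ptger4. The shift of Ltc4s minus Lta4h was 0.09 to 0.43 without single arrays. The replicate block, with numbers that do not pair the arrays, left all 9 calls (Ptgs2 adjusted p = 0.017, Alox15 0.023) and gave 3646 genes higher and 3508 lower. Under it Lpcat2 was not called (0.054) and Anxa1 was called as lower (0.032). Of the 30 wider pathway calls, 21 held in the same direction under each of the 14 alternative fits that gave them a value. Among these, Ephx2 had no value with the filter on mean level. Why the others lost their calls was not tested. Signal near background limits Alox15, Alox12, Ephx2 and the vehicle level of Alox5.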

Other observations

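Further probe sets gave values for genes named above. Ptges3 had a pair of other probe sets, which were lower with PLX3397 by 1.01 and 0.99 on the log2 scale (limma adjusted p among all probe sets 4.99e-05 and 1.16e-05), beside the fall of 0.88 on its brightest. The second probe set of Gpr31b averaged 7.13 ± 0.18 with PLX3397 and 10.39 ± 0.03 with vehicle (SD, n = 3 each), a change of -3.25. The cytosolic phospholipase gene Pla2g4b is read only by a probe set it shares with Jmjd7 and the read-through gene Gm28042. That probe set averaged 4.30 ± 0.06 with PLX3397 and 3.93 ± 0.32 with vehicle and did not pass (change 0.37, limma adjusted p = 0.073).

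A pair of breakdown and transport genes outside the 4 largest of their list also passed the threshold: the exporter genes Abcc1, which carries leukotriene C4 out of cells, and Abcc4, which carries prostaglandins, changed by 0.26 (SE 0.08, limma adjusted p = 0.0296) and -0.36 (SE 0.09, adjusted p = 0.0119). They were named after their values were seen. The call of Abcc1 was lost with centred arrays and without PLX3397 replicates 2 or 3 or vehicle replicates 1 or 3 (adjusted p of 0.067 to 0.257), and that of Abcc4 was kept under all 14 alternative fits. Cotl1, which binds 5-lipoxygenase, rose by 0.81 (SE 0.09, adjusted p = 5.86e-05), and Dicer1, another reported 5-lipoxygenase partner, fell by 0.62 (SE 0.10, adjusted p = 7.67e-04). Annexin A1 (Anxa1), a phospholipid-binding ligand of formyl peptide receptors, averaged 10.31 with PLX3397 and 10.63 with vehicle and did not pass (adjusted p = 0.076), but it passed as lower with centred arrays (-0.45, adjusted p = 0.018) and with a variance trend (adjusted p = 0.049).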
